A study of Mus musculus with 20 samples.

Results

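The kidney transcriptomes of 6 anti-miR-21-treated and 3 ACEi-treated Alport mice were compared directly, gene by gene. The 9 mice were all those labelled with either treatment, out of 20 mice in the RNA-seq series, and every gene that passed a filter on low counts was tested. All 9 were male F1-Col4a3-/- mice (B6 x 129SvJ, which lack a functional Col4a3, the gene for the collagen IV α3 chain), treated from 5 weeks of age and killed at 15 weeks. The anti-miR-21 group received lademirsen, a chemically modified oligonucleotide that binds and blocks miR-21, subcutaneously at 50 mg/kg each week. The ACEi group drank water with ramipril, an inhibitor of angiotensin-converting enzyme, at 11 mg/L and was injected with PBS, although the deposited library table gives its dose as 4 mg/kg. The other mice were 6 F1-Col4a3-/- mice given PBS only (Veh) and 5 untreated wild-type littermates (WT), and they serve here to place the levels of each gene. The libraries were made from RNA of the whole kidney, in which fewer cells of a type and less RNA per cell cannot be told apart.

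As background, ramipril blocks the step in which angiotensin I becomes angiotensin II. Angiotensin II, through its type 1 receptor, restrains the renin-producing juxtaglomerular cells of the kidney, so renin is a familiar marker of blockade of this system. MiR-21 is a microRNA that is abundant in injured kidney and represses mRNAs that carry a match to its seed in their 3′ untranslated region (3′UTR). Alport kidneys lose a normal glomerular basement membrane and accumulate interstitial matrix, inflammatory cells and damaged tubules.

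The sequences below show what lademirsen is directed against and which letters were later searched for in the 3′UTRs. In the mature miRNA, taken from RefSeq for GRCm38.p6 (chr11:86584120-86584141, minus strand), the capitals mark the seed, bases 2 to 8. In the seed matches, written as DNA, all letters count, and the 8mer ends with an A opposite base 1 of the miRNA.
mmu-miR-21a-5p: uAGCUUAUcagacugauguuga
Seed match, 8mer: ATAAGCTA
Seed match, 7mer-m8: ATAAGCT

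Levels are given as CPM (counts relative to the library total), adjusted between libraries with the TMM method, and differences as log2 fold changes of anti-miR-21 minus ACEi, so that a negative value is a lower level under anti-miR-21. The test was edgeR's quasi-likelihood test in 1 fit over all 20 mice, and a gene was called at a Benjamini-Hochberg adjusted p under 0.05. The counts of the 9 treated mice summed to between 28630601 and 29479629, from 70304683 to 72962698 alignments, and 9.452% to 12.583% of the counts fell on the mitochondrial genome. Flow cell, as the library table gives it, was not balanced. Flow cell A held 5 anti-miR-21 libraries and 1 ACEi library (mouse A23), and flow cell B held 1 anti-miR-21 library (mouse A10) and 2 ACEi libraries (mice A11 and A13). Each library carries its own mouse number, and the numbers pair no mice.

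Of 17622 genes tested, 103 were called, which is 0.584% of them. With anti-miR-21 64 were higher (0.363%) and 39 were lower (0.221%) than with ACEi, and 102 of the 103 had no overlap between the 6 and the 3 mice. Without overlap were 8.99% of all genes tested. At an unadjusted p under 0.05 were 2562 of the 17622 genes, 1254 higher and 1308 lower. DESeq2, another test on the same counts, called 437 (2.48%). The counts given for gene lists below are to be read beside these shares. The median size of the called differences was 0.85 on the log2 scale, and 41 reached 2-fold. At the locus of 54 of the 103 another annotated gene overlaps, and reads of such pairs may be shared. A set of 14 genes was called in each of 9 fits that left out 1 treated mouse. Of these, 5 were lower under anti-miR-21 (Ren1, Eln, Mfap4, Nucb2 and Akr1b7) and 9 were higher, among which Rnf167 was the protein-coding gene, 7 were long non-coding RNAs and 1 was a pseudogene. The number called depended on single mice. It was 1.22% of the genes tested without A8 (94 higher and 120 lower), and 65 genes without A10, 42 without A15, 49 without A22, 25 without A11, 25 without A13 and 21 without A23.

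The first principal component of the 9 treated mice, with 27.3% of the variance, separated the groups without overlap. The ACEi mice had scores of -29.4 (A11), -22.8 (A13) and -37.8 (A23). The anti-miR-21 mice ran from -5.6 (A2) and -4.8 (A8) through 1.2 (A10) to 24.6 (A15), 32.9 (A12) and 41.9 (A22). The anti-miR-21 group was thus spread more widely along this axis than the ACEi group, and A2, A8 and A10 lay nearer to the ACEi mice than A12, A15 and A22 did. On the component that followed, with 15.1% of the variance, the groups overlapped.

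**Figure D1:**
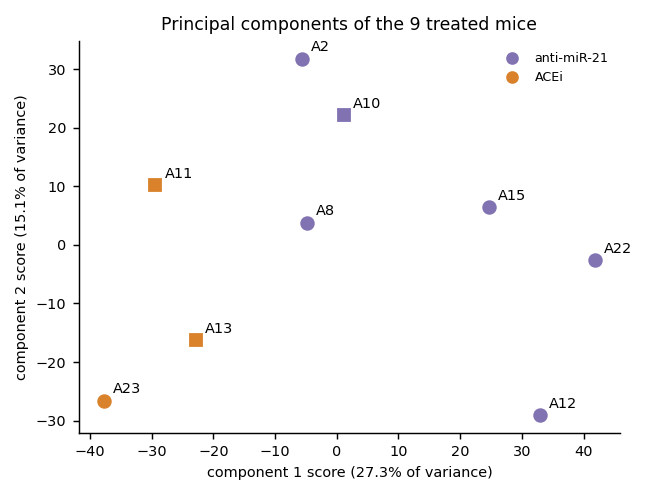
Scores of the 9 treated mice on the first and the next principal component of centred log2 CPM over all 17622 genes tested, with the group in colour, circles for flow cell A and squares for flow cell B. The 3 ACEi mice lie between -37.8 and -22.8 on the horizontal axis and the 6 anti-miR-21 mice between -5.6 and 41.9, while the groups overlap on the vertical axis.

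Renin had the smallest adjusted p of all genes. Ren1 (ENSMUSG00000070645, GRCm38 chr1:133350510-133360325, plus strand) encodes renin, the protease that starts the formation of angiotensin. Its level was 62.1, 82.2 and 93.9 CPM (lowest, median and highest) in the anti-miR-21 group and 488 (A11), 605 (A13) and 453 CPM (A23) in the ACEi group. Every ACEi mouse was far above every anti-miR-21 mouse, and the anti-miR-21 mice lay within the range of the WT mice (41.7 to 98.2 CPM) and above the Veh mice (23.8 to 37.7 CPM). The difference was -2.67 ± 0.19 (log2 fold change ± SE; edgeR quasi-likelihood adjusted p = 1.09e-07), or 6.36-fold more renin mRNA in the ACEi group. It was -2.47 among the libraries of flow cell A and -2.83 among those of flow cell B. Mice of 129 strains carry a renin gene, Ren2, that is not part of the C57BL/6J reference, and reads from such a copy would count under Ren1.

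Akr1b7 (ENSMUSG00000052131), an aldo-keto reductase known from renin-producing cells, had 3.33, 4.80 and 6.37 CPM in the anti-miR-21 group and 10.8 (A11), 15.7 (A13) and 14.8 CPM (A23) in the ACEi group. The groups did not overlap, and the anti-miR-21 mean was close to the means of 4.21 in Veh and 3.79 in WT. The difference was -1.46 ± 0.20 (adjusted p = 0.000786). Ren1 and Akr1b7 were the 2 members called of 19 tested in a list of juxtaglomerular genes, both lower, as were 0.221% of all genes. The other members of this list included the connexins Gja4 (0.00, adjusted p = 0.993) and Gja5 (-0.18, adjusted p = 0.484) and the pericyte gene Rgs5 (-0.04, adjusted p = 0.893).

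Ren1 was also the 1 gene called of 13 tested in the renin-angiotensin list, where 0.221% of all genes were called lower. The precursor angiotensinogen, Agt, had a log2 fold change of 0.06 (adjusted p = 0.855), the drug target of ramipril, Ace, -0.01 (adjusted p = 0.991) and the type 1 receptor gene Agtr1a -0.04 (adjusted p = 0.886). The angiotensin-cleaving peptidases Mme and Enpep had 0.36 (adjusted p = 0.125) and 0.28 (adjusted p = 0.442). The median of the list, -0.04, was near the median of 0.01 over all genes and changed sign with the setting (-0.12 to 0.09).

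**Figure D2:**
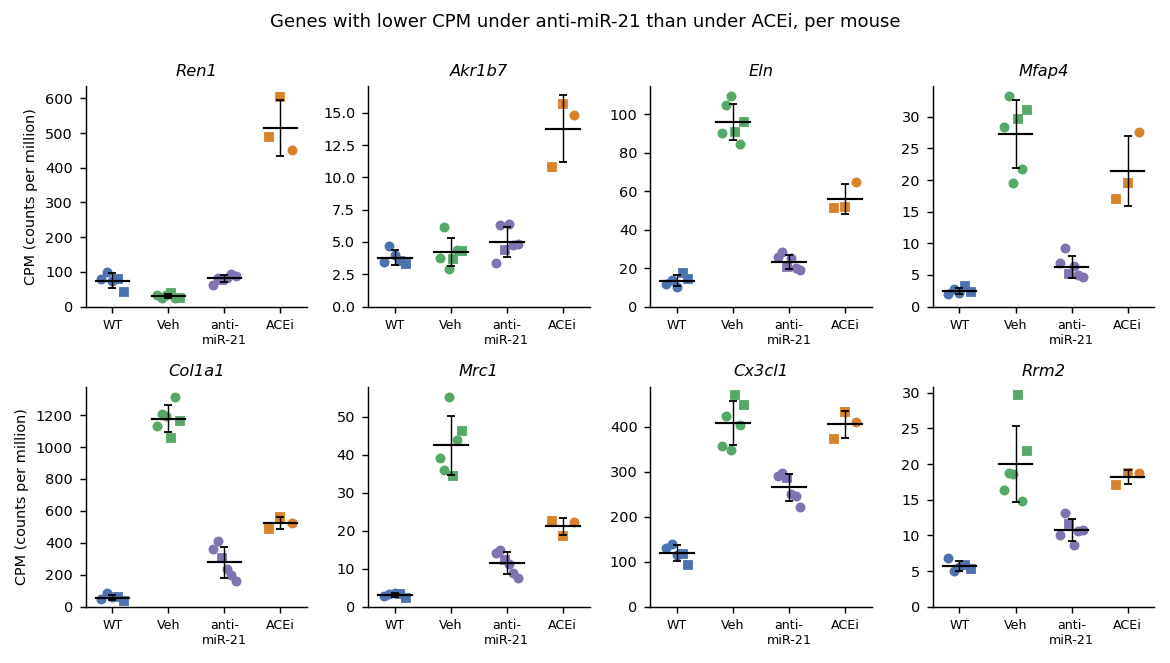
CPM of 8 genes in each of the 20 mice (vertical axes from 0), with circles for flow cell A, squares for flow cell B and bars for the mean ± SD of each group. All 8 have lower levels in every anti-miR-21 mouse than in every ACEi mouse, 7 passed the test and Col1a1 did not; renin is between 453 and 605 CPM in the ACEi mice and at most 98.2 CPM in any other mouse, whereas elastin is highest in the Veh mice.

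Genes of elastic fibres and other matrix followed renin among the genes lower under anti-miR-21. Eln (ENSMUSG00000029675, chr5:134702593-134747323, minus strand) encodes elastin, and Mfap4 (ENSMUSG00000042436, chr11:61485431-61488900, plus strand) a glycoprotein that binds elastic microfibrils. For Eln the anti-miR-21 mice had 19.1, 22.8 and 28.3 CPM, against 51.4 (A11), 51.8 (A13) and 64.7 CPM (A23) with ACEi. All 9 treated mice were below the lowest Veh mouse (84.7 CPM) and above the highest WT mouse (17.4 CPM), with the anti-miR-21 mice next to WT. The difference was -1.27 ± 0.14 (adjusted p = 7.67e-05), and it was -1.45 in flow cell A and -1.33 in flow cell B. For Mfap4 the levels were 4.65, 5.78 and 9.25 CPM with anti-miR-21 and 17 (A11), 19.6 (A13) and 27.7 CPM (A23) with ACEi. Of the ACEi mice, A11 was below the Veh range of 19.6 to 33.2 CPM, A13 at its lower end and A23 inside it, and the anti-miR-21 mice lay between the ACEi mice and the WT mice (2.05 to 3.27 CPM). The difference was -1.78 ± 0.20 (adjusted p = 0.000116). Both loci overlap another annotated gene.

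Eln and Mfap4 were the 2 genes called of 22 in the list of elastic fibre and microfibril genes, both lower, as were 0.221% of all genes. The median log2 fold change of the list was -0.48. In 11 of the 22 (50.0%) all anti-miR-21 mice were below all ACEi mice, against 4.80% of all genes, and 13 had an unadjusted p under 0.05. The fibrillins had -0.84 (Fbn1, adjusted p = 0.132) and -1.09 (Fbn2, adjusted p = 0.113), and the microfibril gene Mfap2 had -0.83 (adjusted p = 0.115).

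The interstitial collagens showed the same direction without passing the test. In the list of fibrillar collagens and other interstitial matrix, edgeR called 0 of 28 genes, against 20 at an unadjusted p under 0.05 (18 of them lower under anti-miR-21) and 4 called by DESeq2, all lower. The median was -0.46, between -0.57 and -0.30 over all other settings, and in 11 of the 28 (39.3%, against 4.80% of all genes) all anti-miR-21 mice were below all ACEi mice. Col1a1, the α1 chain of type I collagen, had 162, 272 and 411 CPM in the anti-miR-21 group and 488 (A11), 563 (A13) and 524 CPM (A23) in the ACEi group. Every anti-miR-21 mouse was lower, but this group spread over a more than 2-fold range, with A8 and A2 highest and A22 lowest. The difference was -0.91 ± 0.23 (adjusted p = 0.0772). Col3a1 had -0.94 (adjusted p = 0.13), Col5a1 -0.82 (adjusted p = 0.0586) and Fn1, fibronectin, -0.62 (adjusted p = 0.269). Dcn, the collagen-binding proteoglycan decorin, had a value of the other sign, 0.50 (adjusted p = 0.274).

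Basement membrane genes, the group to which the disrupted gene belongs, had a median of -0.21. Of 19 tested edgeR called 0, with 7 at an unadjusted p under 0.05 and 1 called by DESeq2, and in 8 (42.1%, against 4.80% of all genes) the anti-miR-21 mice were all lower. Col4a1, the ubiquitous α1 chain of type IV collagen, had 450, 560 and 645 CPM with anti-miR-21 and 795, 848 and 767 CPM with ACEi, a difference of -0.53 ± 0.14 (adjusted p = 0.0772). The targeted gene, Col4a3, still gave reads in all treated mice, at 45.9 to 74.9 CPM with anti-miR-21 and 42.8 to 56.2 CPM with ACEi, against a mean of 217 CPM in WT. It overlapped between the treatments (0.28, adjusted p = 0.44).

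Further genes called lower encode proteins of the cell surface and matrix, and they lie outside the lists above. Adam11, a metalloprotease-like membrane protein, had 9.46, 13.8 and 16.6 CPM with anti-miR-21 and 32.2, 24.3 and 29.3 CPM with ACEi (-1.08 ± 0.17, adjusted p = 0.00489). C1qtnf6, a secreted protein with a collagen-like stretch, had 10.7, 15.5 and 24.4 CPM against 27.9, 37.4 and 36.7 CPM (-1.07 ± 0.17, adjusted p = 0.00554). Neither overlapped between the groups. The growth factor Ptn (-1.14, adjusted p = 0.0482), the leucine-rich repeat protein Islr2 (-1.13, adjusted p = 0.0374), the fibrillin-binding Adamtsl2 (-0.85, adjusted p = 0.0208), the basement membrane peroxidase Pxdn (-0.56, adjusted p = 0.0263) and the gelatinase Mmp9 (-0.94, adjusted p = 0.0406) were also lower. Without single mice these genes were called less often, in 1 of 9 such fits for Ptn and Mmp9, 2 for Islr2, 4 for Pxdn, 5 for Adamtsl2, 7 for C1qtnf6 and 8 for Adam11.

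Of the TGF-beta genes, which drive matrix production in many tissues, edgeR called 0 of 17, with 5 at an unadjusted p under 0.05 and 3 called by DESeq2. Their median was -0.12, and in 4 of the 17 (23.5%, against 4.80% of all genes) all anti-miR-21 mice were below all ACEi mice. Tgfb3 had -0.62 (adjusted p = 0.058) and Tgfb1 -0.30 (adjusted p = 0.416). Plau, the urokinase-type plasminogen activator, was higher under anti-miR-21, at 528, 646 and 757 CPM against 467, 419 and 403 CPM (0.58 ± 0.12, adjusted p = 0.0311). Acta2, the smooth muscle actin of myofibroblasts, had -0.05 (adjusted p = 0.925) and Vim, vimentin, -0.29 (adjusted p = 0.297).

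Few immune genes were called between the treatments. The macrophage mannose receptor Mrc1 had 7.44, 11.8 and 14.8 CPM in the anti-miR-21 group and 22.5, 18.6 and 22.2 CPM in the ACEi group (-0.87 ± 0.18, adjusted p = 0.0304), with no overlap. It was the 1 gene called of 18 macrophage genes, while 0.221% of all genes were called lower. The median of the list was -0.18 and turned to 0.10 in flow cell B alone. Adgre1, which encodes the macrophage antigen F4/80, had -0.43 (adjusted p = 0.318). Gpnmb, a lysosomal glycoprotein of macrophages named here after its values were seen, lay in the other direction with 5.35, 14.1 and 31.1 CPM under anti-miR-21 and 4.0, 4.26 and 5.18 CPM under ACEi. Its groups did not overlap, although the lowest anti-miR-21 mouse was close to the highest ACEi mouse, and its 1.82 ± 0.50 did not pass edgeR's test (adjusted p = 0.0952). DESeq2 called 1 gene of the list higher and 1 lower. The summed level of the 18 genes overlapped, at 834 to 1629 CPM with anti-miR-21 and 1091 to 1400 CPM with ACEi. Cx3cl1, the membrane-bound chemokine fractalkine, had 222, 269 and 296 CPM against 374, 432 and 410 CPM (-0.61 ± 0.12, adjusted p = 0.0254). All anti-miR-21 mice were below all Veh mice (348 to 470 CPM), whereas the ACEi mice lay inside that range. Cx3cl1 was the 1 gene called of 26 chemokines (median -0.30, 0.15 in flow cell B alone), while 0.221% of all genes were called lower. The natural killer cell receptor Klrb1b (-0.97, adjusted p = 0.0393), the platelet chemokine Pf4 (-1.44, adjusted p = 0.0393), the cholesterol exporter Abca1 (-0.92, adjusted p = 0.0263), the interferon-gamma receptor chain Ifngr2 (-0.43, adjusted p = 0.0437) and Cybc1 (-0.36, adjusted p = 0.00717), which the phagocyte oxidase needs, were called lower.

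In the other immune lists edgeR called 0 genes. MHC class II genes had a median of -0.47 (9 tested, 7 at an unadjusted p under 0.05, 1 called by DESeq2), and each of the 9 was below 0. In 3 of them (33.3%, against 4.80% of all genes) all anti-miR-21 mice were below all ACEi mice. T cell genes had a median of -0.57 (16 tested, 0 at an unadjusted p under 0.05, 0 by DESeq2), and their summed level was 23.7 to 43.6 CPM with anti-miR-21 and 29.1 to 50.4 CPM with ACEi. Interferon-stimulated genes had -0.12 (25 tested, 2 and 0) and complement genes -0.21 (0.05 in flow cell B alone, 19 tested, 2 and 0). The receptors and adaptors that sense foreign nucleic acids had a median of -0.33 (12 tested, 4 and 2), with Myd88, an adaptor of Toll-like receptors, at -0.34 (adjusted p = 0.0562) and Tmem173, which encodes STING, at -0.57 (adjusted p = 0.0769). Ighv1-9, an immunoglobulin segment, was called (-4.40, adjusted p = 0.0283) although its groups overlapped, with 0.0341 CPM in ACEi mouse A23 and 2.68 CPM in A13.

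Genes of cell division had the lowest median among the lists of kidney and immune genes. For 22 cell cycle genes it was -0.65 (-0.77 to -0.54 over all other settings), 19 had an unadjusted p under 0.05, and in 14 (63.6%, against 4.80% of all genes) all anti-miR-21 mice were below all ACEi mice. Of the 22, 2 were called, both lower, as were 0.221% of all genes. Rrm2, a subunit of the ribonucleotide reductase that supplies DNA synthesis, had 8.62, 10.6 and 13.1 CPM against 17.1, 18.8 and 18.7 CPM (-0.76 ± 0.16, adjusted p = 0.0372). The replication helicase subunit Mcm2 had 16.6, 17.5 and 23.2 CPM against 27.0, 23.9 and 23.6 CPM (-0.43 ± 0.09, adjusted p = 0.0418). Neither gene overlapped between the groups, although for Mcm2 the highest anti-miR-21 mouse was close to the lowest ACEi mouse. Rrm2 was called in 1 of the 9 fits without a mouse and Mcm2 in 2. DESeq2 called 8 of the 22. The mitotic genes Ccnb1 and Top2a had -0.97 (adjusted p = 0.14) and -0.62 (adjusted p = 0.163), and the proliferation marker Mki67 had -0.54 (adjusted p = 0.29).

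Immediate early genes, transcription factors that respond within minutes to stress, had a median of -0.48. Of 22 tested edgeR called 0, with 11 at an unadjusted p under 0.05 and 2 called by DESeq2. In 7 of the 22 (31.8%, against 4.80% of all genes) all anti-miR-21 mice were below all ACEi mice. Jun had 40.7, 63.7 and 74.9 CPM with anti-miR-21 and 114, 103 and 94.0 CPM with ACEi (-0.80 ± 0.22, adjusted p = 0.0952). Tubule injury genes also had a median of -0.46 (19 tested, 0 called, 8 at an unadjusted p under 0.05, 1 called by DESeq2). Sox9, a factor of regenerating tubules, had -1.0 (adjusted p = 0.113), and the injury markers Havcr1 and Lcn2 had -0.39 (adjusted p = 0.542) and -0.31 (adjusted p = 0.714) with overlapping groups. The medians of these lists came to -0.10 and -0.13 in flow cell B alone.

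**Figure D3:**
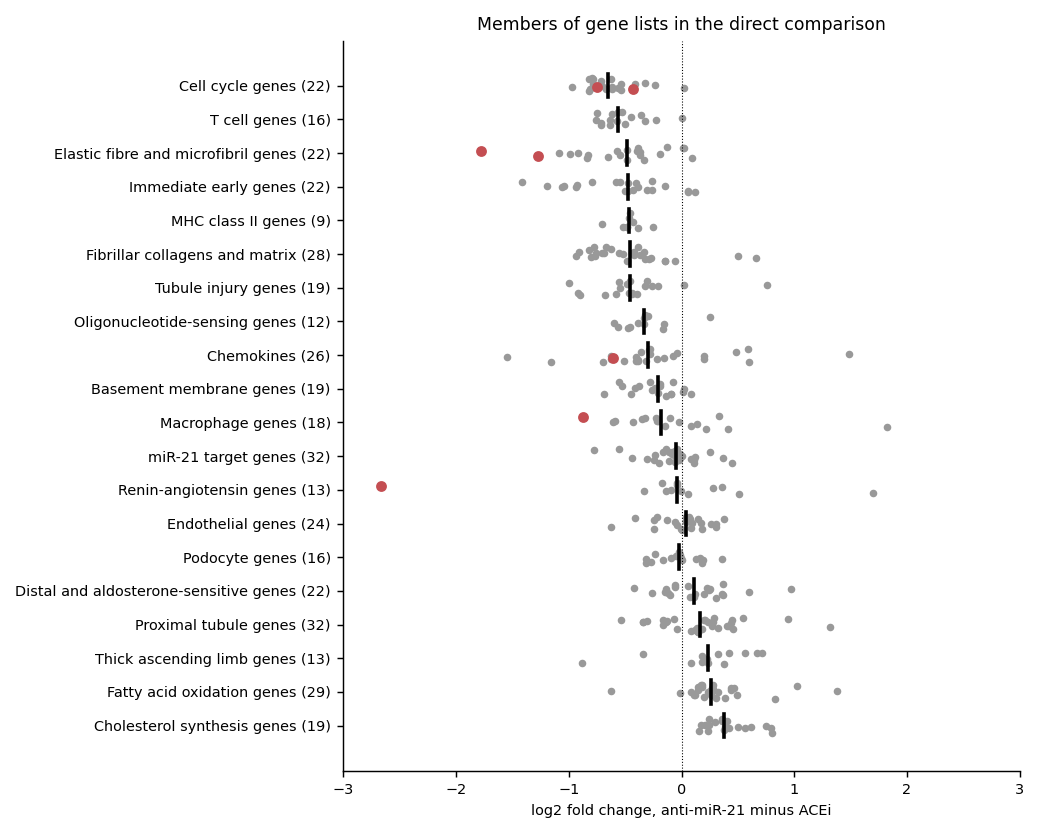
Log2 fold change, anti-miR-21 minus ACEi, of each tested member (points) of 20 gene lists, with the number tested in parentheses, the list median as a black tick and called genes in red. Cell cycle genes have the lowest median (-0.65) and cholesterol synthesis genes the highest (0.38), and renin is the red point at -2.67; values past ±3 would be drawn at that limit.

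Nucb2, which encodes the secreted calcium-binding protein nucleobindin, is described because it was called in every fit without 1 mouse; it was chosen after its values were seen. It had 8.65, 10.1 and 11.0 CPM with anti-miR-21 and 16.2, 16.2 and 19.4 CPM with ACEi (-0.80 ± 0.09, adjusted p = 0.000129). The anti-miR-21 mice lay near the WT mice (10.2 to 13.1 CPM) and the ACEi mice near the Veh mice (17.3 to 20.7 CPM). Ctxn3, a small membrane protein, showed another arrangement, with 1.38, 1.59 and 3.02 CPM against 7.81, 4.80 and 7.80 CPM (-1.89 ± 0.37, adjusted p = 0.0252) and means of 1.08 CPM in Veh and 11.7 CPM in WT. Here the ACEi mice were nearer to WT and the anti-miR-21 mice nearer to Veh.

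Among protein-coding genes higher under anti-miR-21, Rnf167 (ENSMUSG00000040746, chr11:70647235-70651421, plus strand), an E3 ubiquitin ligase of endosomes and lysosomes, had the smallest adjusted p. It had 126, 136 and 154 CPM in the anti-miR-21 group and 80.1 (A11), 90.6 (A13) and 77.5 CPM (A23) in the ACEi group. The ACEi mice lay at or above the upper end of the Veh mice (68.2 to 78.2 CPM), and the anti-miR-21 mice at or above the upper end of the WT mice (109 to 131 CPM). The difference was 0.75 ± 0.08 (adjusted p = 6.32e-05), and it was 0.85 in flow cell A and 0.62 in flow cell B. The locus overlaps another annotated gene.

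By fold change, Fgfbp3 and Id4 came first among the protein-coding genes called higher under anti-miR-21. Fgfbp3 (chr19:36917550-36919615, minus strand), a secreted carrier of fibroblast growth factors, had 4.81, 7.23 and 8.18 CPM against 2.69, 1.86 and 3.58 CPM (1.37 ± 0.24, adjusted p = 0.00921), with means of 5.06 CPM in Veh and 4.88 CPM in WT. The means of the treated groups lay on opposite sides of both control means. Id4, an inhibitor of basic helix-loop-helix transcription factors, had 9.59, 14.3 and 16.2 CPM against 8.10, 5.69 and 4.19 CPM (1.14 ± 0.21, adjusted p = 0.0112). Its lowest anti-miR-21 mouse was only just above the highest ACEi mouse. Without A13, the adjusted p of Fgfbp3 came to 0.0812, and without A23 that of Id4 came to 0.147. Id4 was the 1 gene called of 26 in the list of BMP and Id genes, while 0.363% of all genes were called higher. The median of this list, -0.02, changed sign with the setting.

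Other genes called higher encode metabolic enzymes and transporters. Hao2, a peroxisomal hydroxyacid oxidase, had 437, 602 and 787 CPM against 262, 321 and 267 CPM (1.10 ± 0.23, adjusted p = 0.0328), and the Veh mean was 121 CPM. The arachidonic acid epoxygenase Cyp2c23 had 32.9, 36.7 and 42.5 CPM against 16.6, 23 and 20.7 CPM (0.89 ± 0.19, adjusted p = 0.0365). Mmab, which converts vitamin B12 to its mitochondrial cofactor, had 21.6, 25.6 and 27.6 CPM against 18.3, 18.4 and 17.3 CPM (0.48 ± 0.09, adjusted p = 0.0146). In all these genes the lowest anti-miR-21 mouse was above the highest ACEi mouse. The transporters Slc23a3 (0.73, adjusted p = 0.0393) and Slc16a7 (0.71, adjusted p = 0.0432), the mitochondrial acetyl-CoA carboxylase Acacb (0.68, adjusted p = 0.0492), the branched-chain aminotransferase Bcat2 (0.45, adjusted p = 0.0393) and the retinal reductase Dhrs3 (0.59, adjusted p = 0.0154) were also higher.

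The α1-antitrypsin family gave 2 called genes of 6, both higher, as were 0.363% of all genes. Serpina1a had 73.6, 88.6 and 98.3 CPM with anti-miR-21 and 43.6, 40.8 and 36.0 CPM with ACEi (1.14 ± 0.25, adjusted p = 0.0394). Serpina1f had 109, 124 and 142 CPM against 77.5, 73.1 and 58.7 CPM (0.86 ± 0.15, adjusted p = 0.00954). The other members overlapped between the groups, with 0.31 for Serpina1b (adjusted p = 0.702), 0.28 for Serpina1d (adjusted p = 0.855) and -0.22 for Serpina1c (adjusted p = 0.928). Serpina1e was listed at up to 0.295 CPM with anti-miR-21 and at 0.0984, 2.11 and 1.46 CPM with ACEi (-3.24, adjusted p = 0.361), so the family did not share 1 direction. These genes are near-identical copies of each other in part, so the division of reads among them is uncertain, and Serpina1a was called in only 1 of the 9 fits without 1 mouse.

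As whole lists, the tubule and mitochondrial genes had small positive medians without a called gene. For 32 proximal tubule genes it was 0.17 (5 at an unadjusted p under 0.05, 0 called by DESeq2) and turned to -0.16 in flow cell B alone. For 29 fatty acid oxidation genes it was 0.26 (6 and 0), for 92 nuclear subunits of oxidative phosphorylation 0.22 (24 and 0) and for the 13 genes of the mitochondrial genome 0.20 (1 and 0). In flow cell B alone the last 3 medians were 0.07, 0.03 and 0.06. Over all genes, 2562 of 17622 had an unadjusted p under 0.05. The proximal tubule list was near that share, and the 13 genes of the mitochondrial genome were not above it.

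**Figure D4:**
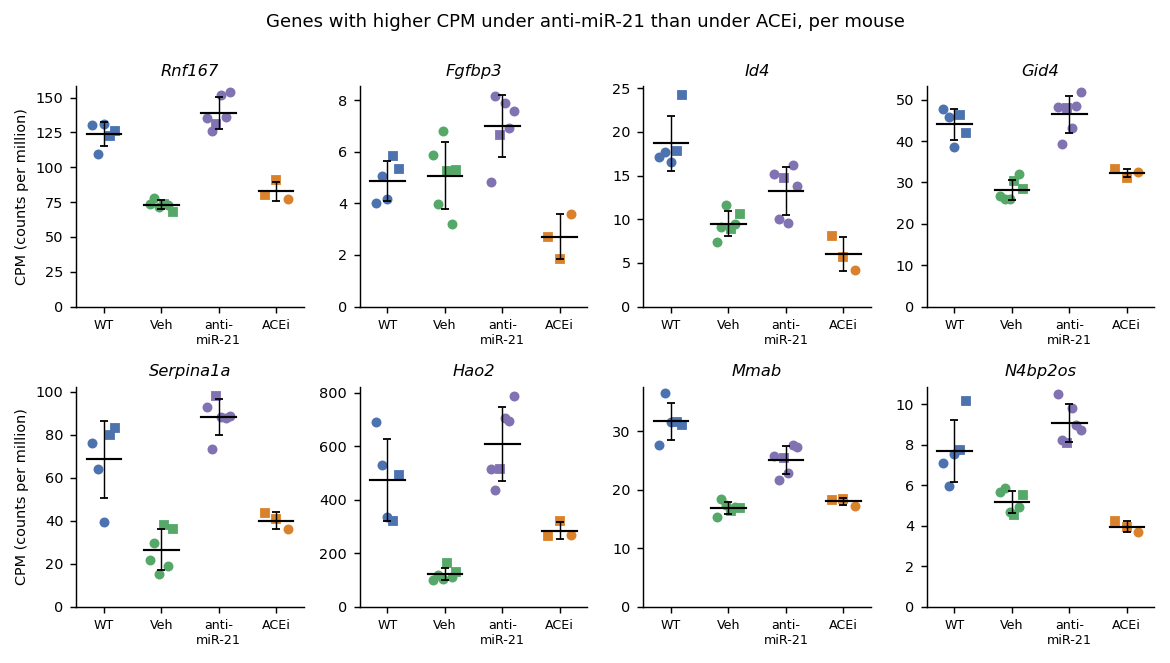
CPM of 8 genes in each of the 20 mice (vertical axes from 0), with circles for flow cell A, squares for flow cell B and bars for the mean ± SD of each group. All 8 were called higher under anti-miR-21, with every anti-miR-21 mouse above every ACEi mouse; in Rnf167 and Gid4 the ACEi mice are close to Veh and the anti-miR-21 mice close to WT, and in Fgfbp3 and N4bp2os the ACEi mean is the lowest of the 4.

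Sterol synthesis genes had values of 1 sign throughout. All 19 genes of the cholesterol pathway had a log2 fold change above 0, with a median of 0.38 that stayed between 0.31 and 0.43 over all other settings, flow cells included. None passed edgeR's adjusted threshold (0 of 19), 14 had an unadjusted p under 0.05, DESeq2 called 5, and in 10 (52.6%) all anti-miR-21 mice were above all ACEi mice, against 4.19% of all genes. Mvk, mevalonate kinase, had 16.1, 17.6 and 19.2 CPM with anti-miR-21 and 13.4, 14.5 and 13.4 CPM with ACEi (0.36 ± 0.09, adjusted p = 0.0612). Fdps, farnesyl diphosphate synthase, had 29.8, 38.6 and 41.1 CPM against 23.7, 25.0 and 24.9 CPM (0.61 ± 0.16, adjusted p = 0.0778). The groups did not overlap for either gene, and Veh had means of 15.5 CPM for Mvk and 42.4 CPM for Fdps. The list as a whole was placed otherwise. Its 19 genes summed to 1498 to 2065 CPM with anti-miR-21 and 1253 to 1393 CPM with ACEi. Veh mice had 855 to 1099 CPM and WT mice 2374 to 2945 CPM, so both treated groups lay between them in sum. Abca1, which exports cholesterol from cells, was among the genes called lower, as given above.

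The remaining nephron and vessel lists held no called gene. Thick ascending limb genes had a median of 0.24 (13 tested, 4 at an unadjusted p under 0.05, 0 called by DESeq2), distal tubule genes 0.11 (22 tested, 4 and 1), collecting duct genes 0.05 (14 tested, 2 and 1), podocyte genes -0.02 (16 tested, 3 and 0) and endothelial genes 0.04 (24 tested, 3 and 0). The last 3 medians changed sign with the setting. Apart from the thick ascending limb, these lists were near the share of all genes at an unadjusted p under 0.05 (2562 of 17622). The water channel Aqp4 had 12.9, 25.0 and 32.5 CPM under anti-miR-21 and 9.45, 8.34 and 4.74 CPM under ACEi (1.65 ± 0.44, adjusted p = 0.0909). Wnk4, a kinase that regulates salt transport in the distal tubule, had a difference of 0.37 ± 0.10 (adjusted p = 0.0805). Both genes had no overlap between the groups and did not pass the test. Of the other lists, edgeR also called 0 of 15 contractile genes (median -0.05, 3 at an unadjusted p under 0.05, 1 called by DESeq2), 0 of 8 kallikrein-kinin genes (0.00, 1 and 1), 0 of 10 B and plasma cell genes (-0.29, 2 and 0), 0 of 25 xenobiotic and antioxidant genes (0.21, 3 and 2), 0 of 20 stress response genes (-0.20, 5 and 1) and 0 of 19 circadian genes (0.02, 2 and 0). The medians of the contractile, kallikrein-kinin and circadian lists changed sign with the setting.

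No gene of a list of miR-21 targets known from other work passed the test between the treatments. Of 32 tested edgeR called 0, 4 had an unadjusted p under 0.05, all of them lower under anti-miR-21, DESeq2 called 1, and the median was -0.05. Over all 17622 genes, 2562 had such a p (1308 of them lower) and DESeq2 called 437 (2.48%), and the list was near these shares. The gene that DESeq2 called in the list was Tpm1, a tropomyosin, with -0.44 (adjusted p = 0.122 by edgeR). Pdcd4, a translation inhibitor, had 33.6, 35.3 and 43.3 CPM with anti-miR-21 and 41.6, 37.6 and 40.3 CPM with ACEi (-0.11, adjusted p = 0.589). Ppara, the nuclear receptor that governs fatty acid oxidation, had 2.88, 4.67 and 6.07 CPM against 4.0, 4.04 and 4.63 CPM (0.11, adjusted p = 0.872). Both overlapped. The miR-21 hairpin gene Mir21a had 0 counts in all 9 treated mice, and Vmp1, whose transcripts run through the hairpin, had 0.11 (adjusted p = 0.655). The mature miRNA was not measured in these libraries.

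The 3′UTRs of 15234 tested protein-coding genes were searched on the transcript strand for the seed matches printed above. An 8mer was present in 347 genes (2.28%), a 7mer-m8 but no 8mer in 813 (5.34%) and neither in 14074 (92.4%). The median log2 fold change was 0.03 with an 8mer, -0.01 with a 7mer-m8 and 0.00 with neither, and 54.8%, 47.4% and 49.0% of the genes were above 0. Median 3′UTR lengths were 2875, 2702 and 1043 bases. Among the 3′UTRs in the top 25% by length, 53.0% of 230 genes with an 8mer, 43.9% of 483 with a 7mer-m8 and 42.7% of 3094 with neither were above 0. These shares are descriptions and were not tested, and a match does not show that miR-21 acts there.

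Among the 347 genes with an 8mer, 5 were called, 4 of them higher under anti-miR-21 (Fgfbp3, Gid4, Cdip1 and Taf7) and 1 lower (Snhg11). Among the 813 with a 7mer-m8, 3 were higher (Rnf167, B3gat2 and Slc16a7) and 4 lower (Cybc1, Rexo4, Frk and Ptn). Among the 14074 with neither, 21 were higher and 33 lower. Over all 15327 protein-coding genes tested, 28 (0.183%) were called higher and 38 lower. The counts with a match are small, and a difference between the classes was not tested. Some of these sites are shown, namely 8mers of 3 genes called higher and the 7mer-m8 with the smallest adjusted p in each direction (Rnf167 higher, Cybc1 lower), beside the 8mers of Pdcd4 and Ppara, which did not pass the test. The 8mers of Taf7, called higher, and of Snhg11, called lower, are not shown. Coordinates are GRCm38, sequences run 5′ to 3′ on the transcript strand, and capitals mark the match.
Pdcd4, chr19:53929420-53929445, plus strand: gtgggtgttctgATAAGCTActttct
Ppara, chr15:85801817-85801842, plus strand: gagaatagtttgATAAGCTAtcccat
Fgfbp3, chr19:36918350-36918375, minus strand: ccgggatggagaATAAGCTAgtcggc
Gid4, chr11:60444992-60445017, plus strand: aaatagtcactgATAAGCTAattttt
Cdip1, chr16:4768261-4768286, minus strand: gcaattcagaagATAAGCTAgagagg
Rnf167, chr11:70651264-70651289, plus strand: ttttccagtctaATAAGCTgagggtg
Cybc1, chr11:121223777-121223802, minus strand: agcctggtctggATAAGCTcacccaa

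Gid4, a substrate receptor of a ubiquitin ligase complex, had 39.4, 48.1 and 51.9 CPM in the anti-miR-21 group and 33.3, 31.2 and 32.4 CPM in the ACEi group (0.53 ± 0.09, adjusted p = 0.00739). Cdip1, a pro-apoptotic membrane protein, had 97.6, 113 and 116 CPM against 86.6, 85.2 and 84.1 CPM (0.38 ± 0.08, adjusted p = 0.0254). In both, every anti-miR-21 mouse was above every ACEi mouse by a margin smaller than the range of the anti-miR-21 group. The transcription initiation factor subunit Taf7 had 6.87, 7.79 and 9.15 CPM against 4.59, 4.65 and 4.77 CPM (0.75 ± 0.13, adjusted p = 0.00739). Its ACEi mice were close to the means of 4.99 CPM in Veh and 4.48 CPM in WT, so that here the anti-miR-21 mice stood apart from the other 3 groups.

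Long non-coding RNAs were called in 1 direction. Of 1568 tested (lincRNA, antisense and other non-coding classes of the annotation, a grouping made after the results were seen), 34 were higher under anti-miR-21 (2.17%) and 0 were lower; without A8, 39 were higher and 1 was lower. In the same class 279 were higher and 21 lower at an unadjusted p under 0.05, and DESeq2 called 86 higher and 0 lower. Of 15327 protein-coding genes, 28 were called higher and 38 lower. Both classes follow the labels of the annotation. Snhg11, by its name a small nucleolar RNA host gene, counts there as protein-coding and was called lower (-0.60, adjusted p = 0.0365). The median log2 fold change of the non-coding class was 0.22, with 69.6% of the genes above 0, against 0.00 and 49.1% for protein-coding genes.

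The shift was present at different levels of expression and with or without an overlapping gene. The share above 0 was 65.2% for non-coding genes under 0 log2 CPM, 76.5% from 0 to 2 and 73.6% at 2 or more, where protein-coding genes had 44.3%, 37.6% and 51.6%. It was 68.7% for 1141 non-coding genes that overlap another annotated gene and 71.9% for 427 that do not. Whether the counting used strand was not given in the sources used here, so reads of an antisense gene and of its partner cannot be told apart. Over 20 fits of the counts, with each setting tried and without each treated mouse in turn, the share ran from 57.0% to 74.7%, and it was 66.1% in flow cell A and 64.4% in flow cell B. It was above that of protein-coding genes in all 20.

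In each mouse, the median log2 CPM over the 1568 genes gave the same picture. It was between -0.21 and -0.14 in the 6 anti-miR-21 mice and between -0.49 and -0.40 in the 3 ACEi mice. Veh mice had -0.40 to -0.27 and WT mice -0.36 to -0.21, so that the treated groups lay at opposite ends, each just touching the range of a control group. The class summed to 6616 to 6946 CPM with anti-miR-21, 5760 to 6125 CPM with ACEi, 6102 to 6491 CPM in Veh and 6900 to 7857 CPM in WT.

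Single non-coding genes were ordered in different ways over the groups. N4bp2os, a transcript beside N4bp2 (chr5:65760991-65764379, minus strand), had 8.08, 8.86 and 10.5 CPM with anti-miR-21 and 4.23, 3.94 and 3.68 CPM with ACEi (1.2 ± 0.15, adjusted p = 0.000242), with means of 5.20 CPM in Veh and 7.70 CPM in WT. The antisense gene 2810402E24Rik had 10.4, 11.8 and 13.3 CPM against 6.26, 5.05 and 5.42 CPM (1.08 ± 0.14, adjusted p = 0.000311). Both had no overlap and were called without any single mouse. The abundant nuclear RNAs Neat1 and Malat1 did not pass the test, with 0.41 (adjusted p = 0.187) and 0.28 (adjusted p = 0.241). Neat1 had its highest median in WT (1290 CPM, against 1202 CPM with anti-miR-21). Meg3 had medians of 1.86 CPM with anti-miR-21, 1.93 CPM with ACEi and 4.29 CPM in Veh. Kcnq1ot1 had 3.87 CPM with anti-miR-21 and 3.37 CPM with ACEi, and its lowest median was in WT (2.45 CPM).

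**Figure D5:**
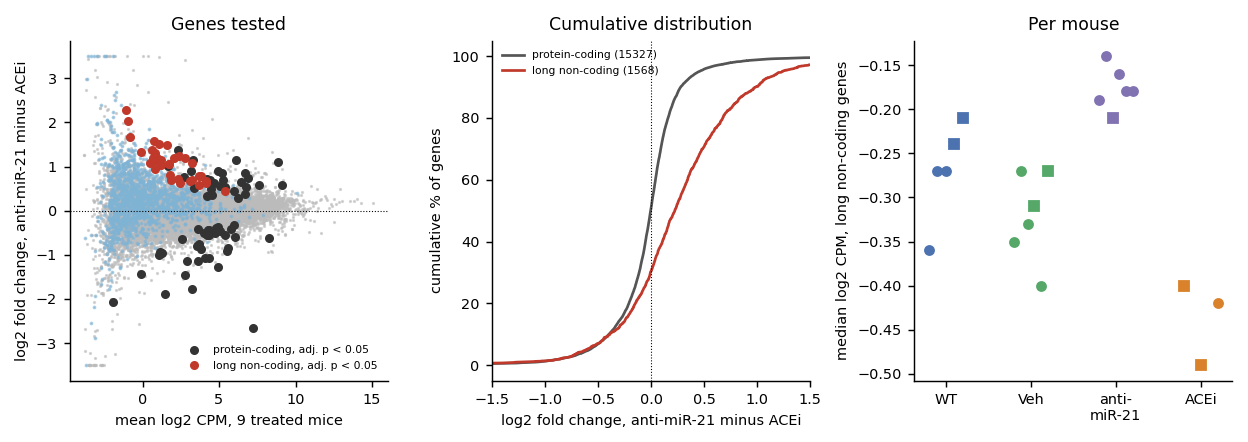
Left, log2 fold change (anti-miR-21 minus ACEi, values past ±3.5 drawn at that limit) against mean log2 CPM, with protein-coding genes in grey, long non-coding genes in blue and called genes as large black (protein-coding) or red (long non-coding) points. Middle, cumulative percentage of genes by log2 fold change for 15327 protein-coding and 1568 long non-coding genes. Right, median log2 CPM of the long non-coding genes in each mouse (circles flow cell A, squares flow cell B), which is -0.21 or above with anti-miR-21 and -0.40 or below with ACEi.

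The levels of the 4 groups were set beside each other by group means, with no test, since both treatments share the same control mice. For 38 of the 103 called genes (36.9%) both treated means lay between the Veh and the WT mean, compared with 66.1% of all genes. In 20 (19.4%, against 6.78% of all genes) only the anti-miR-21 mean lay outside that interval, in 12 (11.7%, against 11.0%) only the ACEi mean did, and in 33 (32.0%, against 16.1%) both did. Of the 39 genes called lower, 26 (66.7%) were of the first kind, as for elastin, a share near the 66.1% of all genes. The 34 long non-coding genes were mostly outside in both groups (22 genes, 64.7%, against 16.1% of all genes). The anti-miR-21 mean was nearer to the WT mean than the ACEi mean was in 83 of the 103 genes (80.6%) and in 71.4% of all genes.

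Markers of other cells were measured because the dissected kidney can hold fat, blood or neighbouring organs. Adipocyte markers (11 tested) summed to 83.7 to 578 CPM with anti-miR-21 and 65.6 to 87.7 CPM with ACEi, and to 46.6 to 705 CPM in Veh and 88.0 to 161 CPM in WT. EdgeR called 0 of them, 3 had an unadjusted p under 0.05 and DESeq2 called 0, but their median was 3.19 in all libraries, 1.52 without anti-miR-21 mouse A12, 1.03 over the genes with at least 10 counts in every mouse and 0.21 in flow cell B alone. The labels give the tissue as kidney, whereas their extraction text speaks of adipose tissue. Erythroid markers (8 tested, 0 called, 2 at an unadjusted p under 0.05, 0 by DESeq2) summed to 778 to 1523 CPM with anti-miR-21 and 398 to 788 CPM with ACEi. Markers of pancreas and liver summed to 241 to 391 CPM and 456 to 738 CPM, most of it from the transthyretin gene Ttr (-0.94, adjusted p = 0.241), and the pancreatic genes Prss1, Pnlip, Cpa1 and Try5 were at 0 in all treated mice. The list holds few hepatocyte genes, and those named next, except Alb, were added after their values were seen. Albumin, Alb, had 5.15, 6.66 and 7.49 CPM with anti-miR-21 against 3.38, 24.3 and 21.8 CPM with ACEi (-1.38, adjusted p = 0.619). The major urinary protein gene Mup7 was at 0 in all anti-miR-21 mice and at 0, 3.33 and 2.62 CPM in the ACEi mice, and the urea cycle gene Cps1 at 0 and at 0, 0.644 and 0.375 CPM. Hepatocyte transcripts thus stood out in ACEi mice A13 and A23, and not in A11. Mup9 (adjusted p = 0.237), Ahsg (adjusted p = 0.267) and F2 (adjusted p = 0.257) were also higher on average in the ACEi mice, none was called, and their part in the differences above was not tested. Adrenal markers summed to 2.65 to 3.59 CPM and 2.18 to 2.85 CPM with Cyp11b1, Cyp11b2, Th and Pnmt at 0, urothelial markers to 5.89 to 13 CPM and 3.95 to 11.0 CPM, and skeletal muscle markers to 1.04 to 1.59 CPM and 1.43 to 1.84 CPM with Ckm and Myh4 at 0. The part of fat and blood cells in the differences above was not tested.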

How the data were processed

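Kidney RNA of 20 mice was sequenced as paired-end reads (5 WT, 6 Veh, 6 anti-miR-21, 3 ACEi), and each library took its group from the labels. Reads were mapped by the authors to GRCm38 (aligner OSA4 of OmicSoft). The authors deposited an estimated count for each of 47069 Ensembl genes, not normalized between libraries, and 29.1% of the positive values are fractional. They also deposited FPKM values, normalized by the authors for length and library total, on another gene model, and a count of alignments per library. Another 3 libraries of the FPKM data matched no labelled mouse and were not used.

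The estimated counts were rounded and tested with edgeR 4.0.16 in R 4.3.3 (filterByExpr with minimum count 10 and minimum total 15, TMM scaling, quasi-likelihood test, 1 coefficient per group over 20 mice, 16 residual degrees of freedom, Benjamini-Hochberg adjustment over all genes, threshold 0.05). Log2 CPM used a prior count of 2. Alternatives were DESeq2 1.42.0, other scalings and filters, only the 9 treated mice, a term for flow cell, either flow cell alone, each treated mouse left out, and limma 3.58.1 on log2(FPKM + 1) or log2(FPKM + 0.1), also with unadjusted p under 0.01 and a fold of at least 1.2. A fit to protein-coding genes alone was chosen after seeing the data. Figures were drawn in matplotlib 3.10.9 with Python 3.11.15 (pandas 2.3.3 and numpy 2.4.6).

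The treated groups, the 41 gene lists and the rule for named genes were chosen with earlier results of these data known. Named were up to 12 protein-coding genes per direction with the largest fold change, a mean of at least 1 log2 CPM over the treated mice, and no overlap between the groups. In each list the called members were named, or otherwise up to 2 with the smallest p, and 17 genes were named whatever their result. Other called genes and other list members in the text were chosen after their values were seen. No set of genes was tested.

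The test of anti-miR-21 against ACEi was checked on simulated counts of 17402 genes, 200 of them changed. The edgeR test recovered 56% of genes changed 1.5-fold, 80% at 2-fold, 90% at 3-fold and 94% at 4-fold, and 4.76% of its calls were unchanged genes, against 12.8% for DESeq2. With no gene changed, it called 0. Each case was drawn 1 time, with counts independent between genes and the fitted spread of each gene taken as true. Joint variation of the anti-miR-21 mice, as along their first principal component, is not in such counts, so these shares hold for that simpler case. Each edgeR p-value sets the difference between the treatments against the spread between mice of the same group, estimated over all groups together.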

Additional observations from a re-analysis of the deposited data

Results flagged for a closer look

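For 110 described genes, 330 sets of the 5 or 6 mice of a group were examined, and 24 held a mouse whose CPM stood far from the others by Dixon's criterion, which chance alone flags in about 1 of 20 sets. In the anti-miR-21 group these were Pf4 in A8 (0.871 CPM, others 0.505 to 0.627), Cdip1 in A8 (97.6 CPM, others 110 to 116), Slc23a3 in A22 (28.6 CPM, others 19.3 to 22.6), Bend5 in A22 (68.4 CPM, others 35.4 to 44.7), Fdps in A2 (29.8 CPM, others 37.4 to 41.1) and the long non-coding gene 4632404H12Rik in A15 (12.6 CPM, others 10.2 to 10.9). For Pf4, Cdip1 and Fdps the distant mouse was the one nearest to the ACEi mice, and for Slc23a3, Bend5 and 4632404H12Rik the one farthest from them. In Veh mice they were Islr2 in A16 (7.84 CPM, others 14.1 to 17.6), Serpina1f in A16 (67.0 CPM, others 38.4 to 47.6) and, among mitotic genes, Mki67 (37.6 CPM, others 21.5 to 25.8) and Top2a (31.7 CPM, others 17 to 20.8), also in A16, and Jun in A19 (213 CPM, others 99.7 to 122). Veh mouse A20 was distant in 8 genes, all but Serpina1c and Serpina1e chosen as hepatocyte genes: Alb (65.1 CPM, others 0.196 to 3.09), Mup7 (8.46 CPM, others 0 to 0.169), Mup9 (3.58 CPM, others 0), Ahsg (6.49 CPM, others 0.0309 to 0.357), F2 (1.78 CPM, others 0 to 0.185), Cps1 (1.18 CPM, others 0 to 0.14), Serpina1e (7.62 CPM, others 0.028 to 0.249) and Serpina1c (6.91 CPM, others 0 to 1.63). In WT mice they were Id4 (24.2 CPM, others 16.6 to 17.8) and Neat1 (1625 CPM, others 1212 to 1320), both in A18, and Acacb (29.1 CPM, others 33.1 to 34.2), Ccnb1 (1.56 CPM, others 0.574 to 0.858) and Fbn2 (0.253 CPM, others 0 to 0.0419) in A14. The ACEi group, with 3 mice, was too small for this criterion.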

How the results depend on the processing

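The number of genes called, 103 (0.584% of those tested), stayed within 1.5 times under DESeq2 size factors (102), upper-quartile scaling (98), library totals (73), only the 9 treated mice (141), flow cell as a term (101), log2(FPKM + 1) (93) and its filter of 1 FPKM (147). Of the 103 genes, 101 were also called with DESeq2 size factors, 92 with upper-quartile scaling, 73 with flow cell as a term, 71 with only the treated mice and 61 with library totals. It moved to 437 (2.48%) with DESeq2, 66 (0.243%) with every gene that had a count, 155 (1.12%) with genes of at least 10 counts in every mouse, 60 (0.28%) with log2(FPKM + 0.1), 605 (2.82%) by the unadjusted criterion on FPKM and 33 (0.215%) when protein-coding genes alone were fitted. Of the 103, 62.1% were higher under anti-miR-21, against 51.5% with DESeq2, 52.9% with the filter of 10 counts, 48.5% with protein-coding genes alone, 46.2% with log2(FPKM + 1), 49% with its filter and 34.9% by the unadjusted criterion. Within flow cell A, with 1 ACEi library, 5 genes were called (0.0271%), and within flow cell B, with 1 anti-miR-21 library, edgeR called 0 (0%), with 587 at an unadjusted p under 0.05; DESeq2 was not run there, and the lone library is assumed to vary like the other groups. Leaving out 1 treated mouse gave 0.117% (without A23) to 1.22% (without A8, when 43.9% were higher). Fits without a mouse or within a flow cell rest on fewer mice, and fits of other gene sets on other numbers of genes; the cause of the other moves was not tested.

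No called value of a described gene changed sign under a setting that tested it. Of their values without 1 mouse, 753 stayed on their side of the threshold with their sign, 10 were newly past it, 16 that were not called changed sign and the rest were no longer past it. Under the other settings, single flow cells aside, 856 stayed, 68 were no longer past it, 27 newly past it and 9 changed sign uncalled. No paired analysis was possible because every mouse has its own number and no number is shared between groups. With 3 ACEi mice, 56% of genes changed 1.5-fold were recovered in simulated counts, so a gene that was not called may still differ by that much.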
